A study of Mus musculus with 12 samples.

Results

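The levels of 10 genes of iron handling were followed in spheroids of primary mouse hepatocytes: the receptors Tfrc, Tfr2 and Scara5, the plasma carrier Trf, the ferritin chains Fth1 and Ftl1, the exporter Slc40a1 and its partner Cp, and the hepcidin genes Hamp and Hamp2. They were chosen by name from a list of iron uptake, storage and hepcidin genes, and each was read through the probe set with the highest mean over the arrays where a symbol had several. All 10 listed genes had a probe set, among 11861 genes measured. Spheroids are compact aggregates that hepatocytes form in plates to which they cannot attach. The cells came from C57BL/6 mice, an inbred laboratory strain, frozen as 4 preparations (2 male and 2 female), each a pool of 3 animals whose age is not given in the sources used here. RNA was taken from every pool after 1, 7 and 14 days of spheroid culture, which gave 6 groups of sex and day with 2 arrays each. A pool averages its animals, so the spread given here is between pools and not between single mice.

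Iron travels in plasma bound to transferrin and enters cells through transferrin receptors. What a cell does not use is stored in ferritin, a shell of heavy and light chains, or leaves through ferroportin, the product of Slc40a1, which is the known iron exporter of mammalian cells. Hepatocytes make transferrin and ceruloplasmin, hold much of the body's stored iron and secrete hepcidin, a peptide hormone that binds ferroportin and sends it to be degraded. Hepcidin transcription is raised by BMP6, a ligand made in the liver mostly by endothelial cells, through SMAD proteins, and by interleukin 6 through STAT3. Iron regulatory proteins act on many of these messages after transcription, on ferritin mostly through translation, and an array reads only messenger RNA.

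The mouse carries a pair of hepcidin genes side by side on chromosome 7. Hamp encodes the iron hormone, and the peptide of Hamp2 has not been found to act on iron in mice. Their promoters are shown because the measured levels of the pair moved together in these cultures. Whether a probe set of one gene reads the other was not tested. Of the windows shown, only that of Hamp holds the exact BMP motif. Each line gives the 250 bases before the annotated start, 5′ to 3′ on the minus strand, from RefSeq with build GRCm38.p6, at chr7:30944030-30944279 for Hamp and chr7:30924182-30924431 for Hamp2. Capitals mark the BMP motif GGCGCC or the bases that stand in its place, followed by the match to the STAT3 motif TTCNNNGAA.
Hamp: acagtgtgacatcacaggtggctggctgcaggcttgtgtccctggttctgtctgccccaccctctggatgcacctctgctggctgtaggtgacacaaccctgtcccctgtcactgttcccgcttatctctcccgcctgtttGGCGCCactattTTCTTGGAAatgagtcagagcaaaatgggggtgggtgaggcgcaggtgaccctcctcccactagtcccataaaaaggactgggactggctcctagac
Hamp2: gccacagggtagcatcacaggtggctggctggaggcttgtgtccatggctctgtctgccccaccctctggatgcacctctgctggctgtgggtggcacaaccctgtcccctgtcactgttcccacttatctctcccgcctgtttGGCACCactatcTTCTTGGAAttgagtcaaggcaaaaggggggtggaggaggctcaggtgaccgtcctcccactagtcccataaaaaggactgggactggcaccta

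Over 247 aligned bases the promoters were identical at 227, which is 91.9%. Within the BMP motif, counted from 1 at its 5′ end, the change from Hamp to Hamp2 was G4A, which leaves GGCACC. In Hamp the GGCGCC motif began 109 bases before the start and the STAT3 match, TTCTTGGAA, 97 bases before it. The same STAT3 match lay 94 bases before the start of Hamp2. Both motifs read the same on either strand and did not overlap. Among 32851 promoter windows of this length 9.59% held GGCGCC, 7.02% held TTCNNNGAA and 0.368% (121 windows) held both, as Hamp does. Of the 12 windows found for 7 of the 10 genes, GGCGCC was also in 1 of the windows of Tfrc, 89 bases before its start, and TTCNNNGAA was in no other. Such a match describes letters in a window and does not show that a factor binds there.

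Levels are deposited log2 values. Array medians lay between 7.47 and 7.53, and the highest value in the table was 12.84, near which a difference may be understated. Every probe set in the table reached at least 4.79 on some array, so values under 4.79 are taken as near the background. The mean log2 level of 10 hepatocyte markers was 10.38 to 11.09 at day 14 and 10.62 to 11.04 at day 1 over the arrays. Among them, albumin (Alb) stood at 12.71 to 12.78 and the hepatocyte transcription factor gene Hnf4a at 11.18 to 11.42. Cyp2e1, another of the 10, ran from 2.87 to 7.94 and lay under 4.79 on 6 arrays. Other liver cells were present in the RNA. The mean log2 level of 12 Kupffer cell and macrophage markers was 5.51 to 7.45 at day 14 and 4.54 to 5.77 at day 1 over the arrays, that of 14 stellate and fibroblast markers 4.10 to 6.71 and 6.94 to 7.13, and that of 7 endothelial markers 3.89 to 5.76 and 5.64 to 6.62. In these bulk samples fewer cells of a type and less RNA per cell cannot be told apart. Differences carry the standard error (±) from a limma model over all arrays, except those between the sexes over all days. For the latter it comes from a limma model on the means of the 4 preparations. Levels carry the SD over 4 preparations. The threshold was an adjusted p (Benjamini-Hochberg, over all 11861 genes) under 0.05.

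In day 14 against day 1, the receptor gene Scara5 rose, the exporter gene Slc40a1 and the transferrin receptor gene Tfrc fell, and the other 7 genes did not pass the test. These 3 of 10 calls stand beside 14.4% of all genes called in that comparison (900 higher and 806 lower of 11861). With 10 genes no excess over that background is read from the count. The median change of the 10 genes was -0.0068, against 0.0070 over all genes. In day 7 against day 1, 0 of the 10 passed, against 4.72% of all genes called. An unadjusted p under 0.05 was found there for 0 of the 10, against 2315 of all 11861 genes. In day 14 against day 7, again 0 of the 10 passed, and 0.489% of all genes were called. At an unadjusted p under 0.05 stood 1 of the 10 (Slc40a1), against 1626 of all 11861 genes in that comparison. With a spread that follows the level (limma's trended and robust option), Slc40a1 passed there with an adjusted p of 0.0175. The 3 day comparisons share arrays and are not independent of each other.

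**Figure D1:**
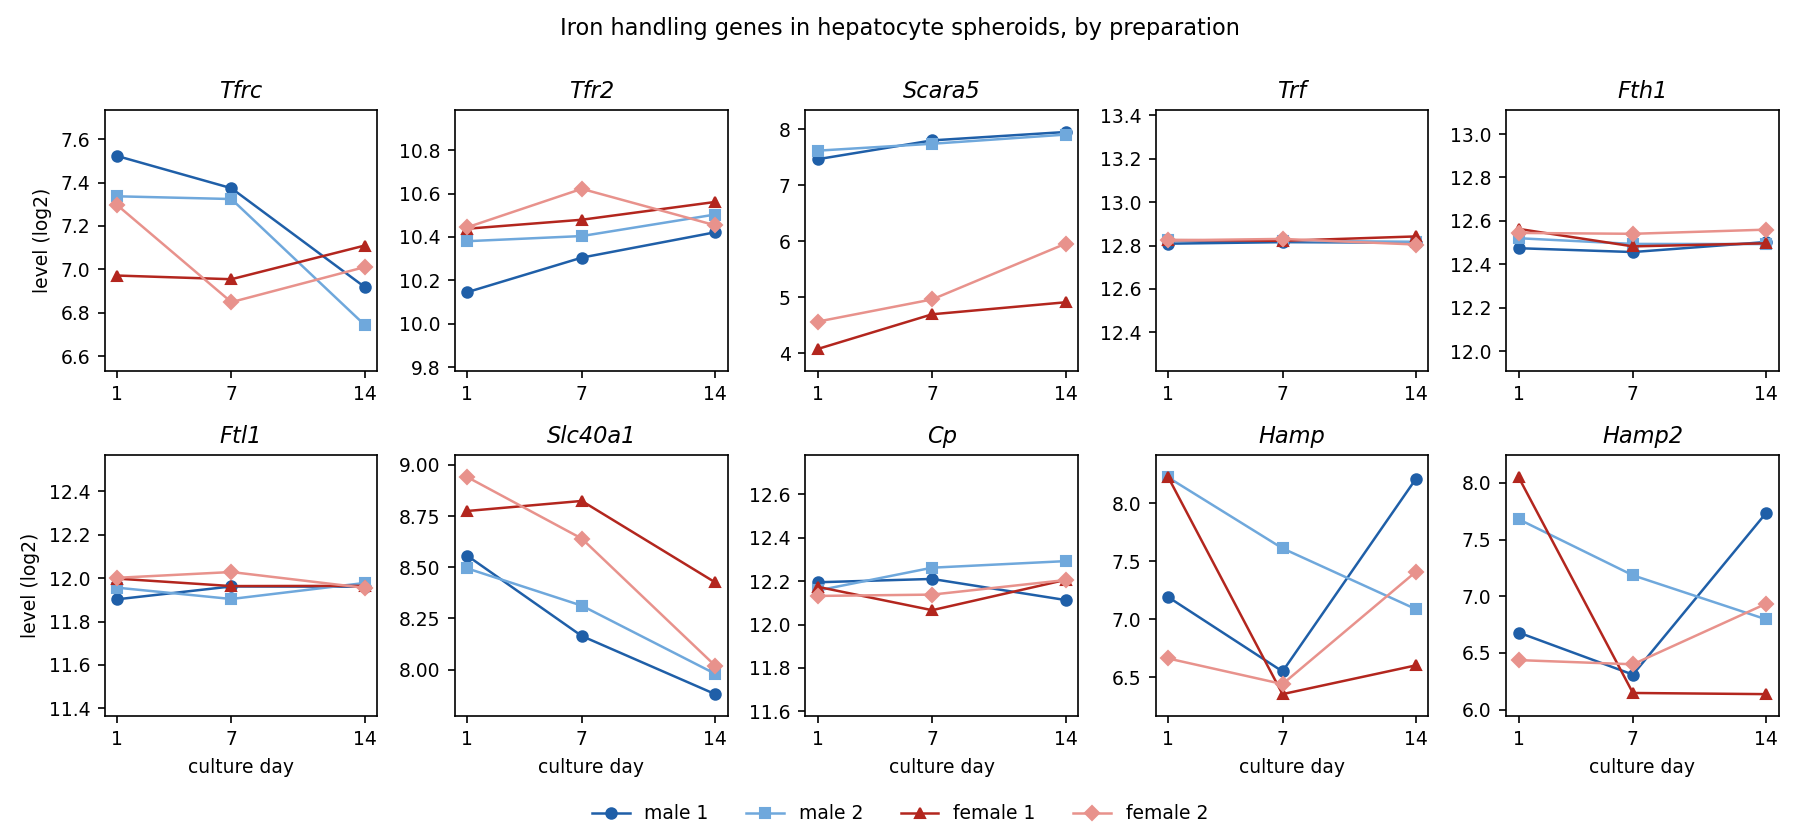
Level of each of the 10 iron handling genes (vertical axis, deposited log2 value, own range in each panel, at least 1.2 units high) against culture day (1, 7 and 14) for the 4 preparations, male 1 and 2 as circles and squares in blue, female 1 and 2 as triangles and diamonds in red, 1 array per point. Slc40a1 ends lower in all 4 lines, Scara5 runs far higher in the male lines, Hamp and Hamp2 cross between preparations, and Trf, Fth1 and Ftl1 are nearly flat.

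The transferrin receptors take up the loaded carrier or sense it. Tfrc encodes the receptor that carries transferrin and its iron into most cells, and its message is stabilised by iron regulatory proteins when a cell is short of iron. At day 1 Tfrc stood at 7.52 and 7.34 in male 1 and 2 and at 6.97 and 7.30 in female 1 and 2. At day 7 it stood at 7.37 and 7.32 in males and at 6.95 and 6.85 in females. At day 14 it stood at 6.92 and 6.74 in males and at 7.11 and 7.01 in females. The males stood above the females at days 1 and 7 and below them at day 14, with no overlap on any day, at 2 arrays against 2. Tfrc fell by 0.34 ± 0.09 on the log2 scale in day 14 against day 1 (adjusted p = 0.0386, 95% interval -0.54 to -0.13), with 6.95 ± 0.16 at day 14 and 7.28 ± 0.23 at day 1 (SD, n = 4). Its change was -0.60 and -0.59 in males and 0.14 and -0.29 in females, so 3 of 4 preparations were lower. A block for the preparation gave an adjusted p of 0.0516, and with any 1 preparation left out it ran from 0.0576 to 0.233, so the call was lost in each of these fits.

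Male minus female in the day 14 change of Tfrc was -0.52 ± 0.18, with an adjusted p of 0.533 over all genes. In that comparison 0 of the 10 genes and 0.0% of all genes passed in limma. At an unadjusted p under 0.05 stood 1 of the 10 (Tfrc) and 815 of all 11861 genes. The trended and robust option called 14 genes there and the fit with the preparation as a block 1, none of the 10 among them. For the day 7 change the count was again 0 of the 10 genes and 0.0% of all genes, with 0 of the 10 and 565 of all genes at an unadjusted p under 0.05. The same difference in the day 14 change was 0.38 ± 0.88 for Hamp, 0.79 ± 0.84 for Hamp2 and 0.04 ± 0.20 for Slc40a1. In the day 7 change it was 0.42 ± 0.88 for Hamp, 0.54 ± 0.84 for Hamp2, 0.15 ± 0.18 for Tfrc and -0.16 ± 0.20 for Slc40a1. No difference between the sexes in how the iron genes changed over days therefore passed the test with 2 preparations per sex.

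Tfr2 encodes the second transferrin receptor, which in hepatocytes serves the sensing of loaded transferrin on the way to hepcidin. The mean level of day 1 was 10.35 ± 0.14, that of day 7 was 10.45 ± 0.13 and that of day 14 was 10.48 ± 0.06 (SD, n = 4). All 4 preparations were higher at day 14 than at day 1, by 0.28 and 0.12 in males and by 0.12 and 0.0090 in females. The mean difference, 0.13 ± 0.07, did not pass (adjusted p = 0.278, 95% interval -0.03 to 0.30).

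Scara5 encodes a scavenger receptor that takes up ferritin, described first in cells of the mouse kidney. It differed most between the sexes among the 10 genes and also had the largest day 14 difference. At day 1 it stood at 7.47 and 7.62 in males and at 4.07 and 4.56 in females. The day 7 levels were 7.80 and 7.74 in males and 4.69 and 4.96 in females. The day 14 levels were 7.95 and 7.91 in males and 4.91 and 5.96 in females. The male arrays (7.47 to 7.95) and the female arrays (4.07 to 5.96) did not overlap on any day, and 3 of the 6 female arrays lay under 4.79, near the background.

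Averaged over the days, Scara5 was at 7.74 and 7.76 in the male preparations and at 4.56 and 5.16 in the female preparations. The difference of 2.89 ± 0.21 is 7.42-fold higher in males (adjusted p = 0.0423, 95% interval 2.34 to 3.44). Since some female values lay near the background, this fold may be understated. Scara5 was the 1 gene of the 10 that passed, while 0.177% of all genes (21 of 11861) did. The adjusted p was 0.226 without male 1, 0.0889 without male 2 and 0.0507 after a second quantile normalization. Of 14 stellate and fibroblast markers, all 14 stood lower in males than in females (median -0.72), of 7 endothelial markers all 7 (median -0.91) and of 12 macrophage markers 10 (median -0.20), with 0 of each list past the test. The part of these cells in the Scara5 difference was not tested.

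Over time, Scara5 rose in day 14 against day 1 by 0.75 ± 0.21 on the log2 scale (adjusted p = 0.0470, 95% interval 0.27 to 1.23). All 4 preparations were higher, by 0.49 and 0.29 in males and by 0.83 and 1.39 in females. Both female arrays of day 1 (4.07 and 4.56) lay near the background, so the female differences, and the mean over the sexes, are uncertain in size. Male minus female in that change was -0.73 ± 0.42 (adjusted p = 0.849). Without male 1 the adjusted p for the rise was 0.303, without male 2 it was 0.229, and after a second quantile normalization 0.0563. Of the 14 stellate and fibroblast markers 8 were lower at day 14 past the test and 0 higher (median -1.45 over both sexes), beside 14.4% of all genes called. The median of male minus female in that change was -2.23, with 12 of 14 below 0 and 0 past the test. In females single markers stood higher at day 14, such as Lum, by 0.73 and 1.46, which was named after its values were seen. Most of the 14 markers, such as Lrat and Col3a1, were lower at day 14 in both female preparations. The part of these cells in the rise of Scara5 was not tested.

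The 5 genes whose levels followed Scara5 most closely over the 12 arrays were Cyp7b1 (r = 0.980), Uty (0.964), Eif2s3y (0.960), Skap2 (0.953) and Zfp992 (0.953). Uty and Eif2s3y lie on the Y chromosome, and Cyp7b1 encodes an oxysterol hydroxylase known for higher levels in male mouse liver. Cyp7b1 stood at 7.65 to 8.26 in males and 5.45 to 6.16 in females. Within the sexes (6 arrays of 2 preparations each) the correlation with Cyp7b1 was 0.448 in males and 0.834 in females, and that with Uty was -0.148 and 0.640. For Eif2s3y these values were 0.559 and 0.111, for Skap2 0.766 and 0.612, and for Zfp992 0.590 and 0.531. Each pooled value was above both values within the sexes, so the pooled values hold in part the gap between the sexes. They describe the arrays, which share animals within a preparation.

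The carrier and the storage genes did not pass in any comparison. Their levels lay near the top of the scale, where a change may not show. Trf encodes transferrin, the plasma iron carrier, and lay between 12.80 and 12.84 on all 12 arrays. Its spread within the groups of sex and day, an SD of 0.0122, was the smallest of all 11861 genes, and its level stood next to the highest value in the table. Fth1 encodes the ferritin heavy chain, which oxidises iron for storage, and lay between 12.46 and 12.56. Ftl1 encodes the light chain, which helps iron to mineralise inside the shell, and lay between 11.90 and 12.03.

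In day 14 against day 1 the 95% interval of the log2 difference ran from -0.11 to 0.11 for Trf, from -0.13 to 0.10 for Fth1 and from -0.12 to 0.12 for Ftl1. Their within-group SDs of 0.0307 for Fth1 and 0.0300 for Ftl1 were in the lowest 0.607% and 0.548% of all genes, against a median gene at 0.138. The mouse genome holds near-identical copies of both ferritin genes, many of them pseudogenes, and a probe set may read more than 1 of them, so their values are uncertain in that respect.

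Slc40a1 encodes ferroportin, and it was lower at day 14 than at day 1 in every preparation. At day 1 it stood at 8.56 and 8.49 in males and at 8.77 and 8.94 in females. At day 7 it stood at 8.16 and 8.31 in males and at 8.82 and 8.64 in females. At day 14 it stood at 7.88 and 7.98 in males and at 8.43 and 8.02 in females. Every array of day 14 was below every array of day 1, and 3 of 4 preparations were already lower at day 7.

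Slc40a1 fell by 0.61 ± 0.10 on the log2 scale in day 14 against day 1, which is 1.53-fold lower (adjusted p = 0.00531, 95% interval -0.84 to -0.39). Its levels were 8.08 ± 0.24 at day 14 and 8.69 ± 0.20 at day 1 (SD, n = 4). The preparations changed by -0.67 and -0.51 in males and by -0.35 and -0.92 in females. In the order of the days, the neighbours did not pass against each other, with -0.21 ± 0.10 for day 7 against day 1 (adjusted p = 0.302) and -0.41 ± 0.10 for day 14 against day 7 (adjusted p = 0.128). The adjusted p of the day 14 fall was 0.102 without male 1 and 0.0687 without male 2, and it passed without either female preparation and with the preparation as a block.

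Macrophages, which recycle iron from red cells, are another site of high ferroportin in liver. Over the same days their markers stood at a higher median (1.07 on the log2 scale, with 2 of 12 higher past the test and 0 lower). Beside 14.4% of all genes called in either direction, 4 of 7 endothelial and 8 of 14 stellate markers were lower at day 14 past the test, averaged over the sexes. Their part in the fall was not tested. Slc40a1 averaged 8.23 in males and 8.60 in females, a difference of -0.37 ± 0.08 that did not pass (adjusted p = 0.120) but did with the trended and robust option (0.0092).

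Cp encodes ceruloplasmin, the copper oxidase of plasma that lets exported iron load onto transferrin. It lay between 12.07 and 12.29 on all arrays and differed by 0.04 ± 0.06 in day 14 against day 1 (adjusted p = 0.725, 95% interval -0.10 to 0.18). Its within-group SD of 0.0600 was lower than that of most genes.

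**Figure D2:**
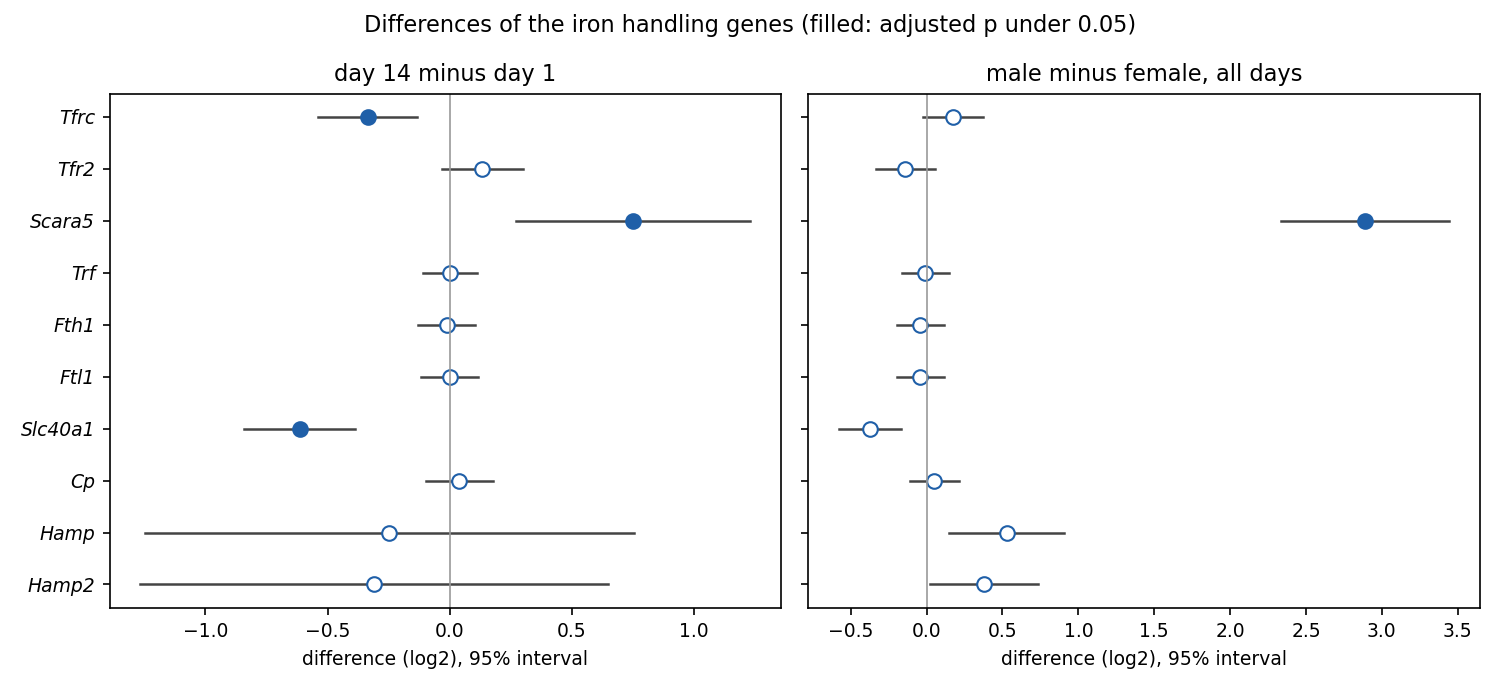
Difference on the log2 scale (horizontal axis, point) with its 95% interval (line) for each iron handling gene, day 14 minus day 1 on the left and male minus female over all days on the right, filled where the adjusted p is under 0.05. On the left Scara5 is above 0 and Tfrc and Slc40a1 are below it. On the right Scara5 alone is filled, at 2.89, and Hamp and Hamp2 have the widest intervals of the left panel.

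Among the 10 genes, the hepcidin genes varied most between preparations of the same sex and day. At day 1 Hamp stood at 7.19 and 8.22 in males and at 8.22 and 6.66 in females. At day 7 it stood at 6.55 and 7.61 in males and at 6.36 and 6.44 in females. At day 14 it stood at 8.21 and 7.09 in males and at 6.60 and 7.41 in females. The days overlapped, and no preparation was the highest on every day.

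From day 1, Hamp was lower at day 7 in all 4 preparations, by 0.64 and 0.61 in males and by 1.87 and 0.22 in females. The mean difference of -0.83 ± 0.44 did not pass (adjusted p = 0.344, 95% interval -1.84 to 0.17). At day 14 the preparations parted, with differences from day 1 of 1.02 and -1.13 in males and -1.62 and 0.75 in females. Their mean was -0.25 ± 0.44 (adjusted p = 0.771), and its 95% interval of -1.25 to 0.75 takes in both a rise and a fall. Leaving out 1 preparation at a time moved it between -0.84 and 0.34. The within-group SD of Hamp, 0.738, was exceeded by 65 of 11861 genes, and that of Hamp2, 0.704, by 81.

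Hamp2 followed Hamp from array to array. At day 1 it stood at 6.68 and 7.68 in males and 8.05 and 6.44 in females. Its day 7 levels were 6.31 and 7.18 in males and 6.15 and 6.40 in females. Its day 14 levels were 7.74 and 6.80 in males and 6.14 and 6.93 in females. The same preparation was the higher of its pair for both genes in all 6 groups of sex and day.

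Over the 12 arrays Hamp and Hamp2 correlated at r = 0.977 (Spearman's rho 0.937), and the deviations from the group means at r = 0.993. No other gene came closer to Hamp, the next being Slc25a38, a mitochondrial carrier gene, at 0.838. The 12 arrays come from 4 preparations, so this describes them and is no test. Each group holds 2 arrays, so its 2 deviations mirror each other, and a correlation of deviations rests on 6 pairs. The transcripts of the hepcidin genes are close in sequence, as their promoters are, and whether a probe set of one reads the other was not tested. Neither gene passed between the sexes, with 0.53 ± 0.14 for Hamp (adjusted p = 0.169) and 0.38 ± 0.13 for Hamp2 (adjusted p = 0.235), while Hamp passed with the trended and robust option (0.0333).

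Hamp was also set against a few genes of its control pathways, picked by name and not the whole lists. Id1 is a direct target of BMP signalling in the liver. At day 1 Id1 stood at 8.66 and 8.63 in males and 8.60 and 8.24 in females. Its levels at day 7 were 6.79 and 7.33 in males and 7.10 and 7.38 in females. Its levels at day 14 were 7.44 and 7.17 in males and 7.65 and 7.96 in females. Every array of days 7 and 14 was below every array of day 1. Over all arrays its correlation with Hamp was r = 0.510 (rho 0.587), and that of the deviations from the group means was 0.805. By the signs of the same pair differences, the same preparation was the higher of its pair for Id1 and Hamp in 5 of 6 groups. For Id3 this held in 4 groups, and for Smad6 and Atoh8, further targets of BMP signalling, in 3 each. In the deviations from the group means Hamp correlated with Id3 at 0.501, with Smad6 at 0.348 and with Atoh8 at 0.392. With the ligand gene Bmp6 it correlated at -0.0668 over all arrays and at -0.200 in the deviations. With Smad7, another BMP target, these values were 0.0427 and -0.0736. The acute phase genes Saa1 and Saa2, which respond to interleukin 6, correlated with Hamp at -0.0740 and -0.0308 over all arrays and at -0.229 and -0.251 in the deviations from the group means. For Socs3, a STAT3 target that was named after its value was seen, these were 0.154 and -0.668.

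**Figure D3:**
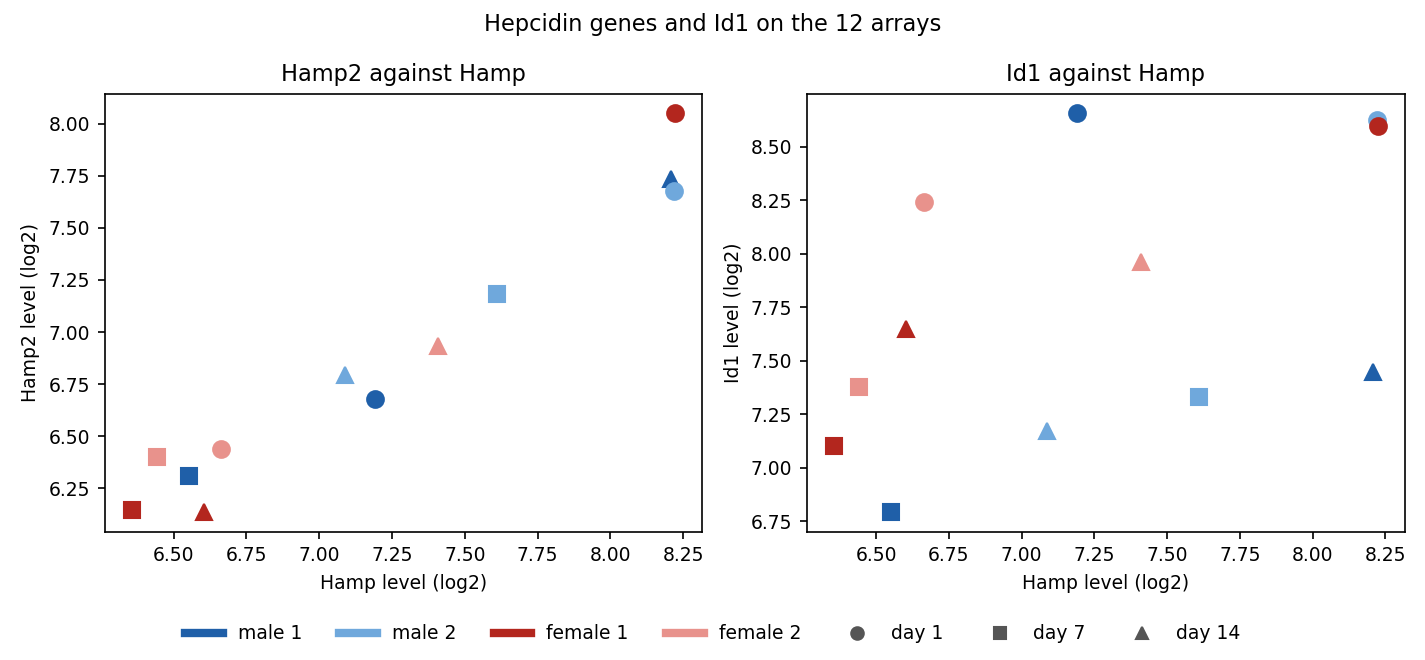
Levels of Hamp2 (left, vertical axis, log2) and Id1 (right, vertical axis, log2) against the level of Hamp (horizontal axis, log2) on the 12 arrays, with colour for the preparation and circles, squares and triangles for days 1, 7 and 14. Hamp2 rises with Hamp along a narrow band (r = 0.977). Id1 is highest at day 1, and its relation to Hamp is looser (r = 0.510).

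Beyond the 10 genes, 87 other genes of iron metabolism in 7 lists were measured, of which 9 were higher and 7 lower past the test in day 14 against day 1 (18.4%, beside 14.4% of all genes, median 0.01). In day 7 against day 1 the counts were 3 and 4 (8.05%, beside 4.72%), and in day 14 against day 7 0 passed. In the latter 16 had an unadjusted p under 0.05, beside 1626 of all 11861 genes. The shares lie near those of all genes. For each single list below, the same 14.4% of all genes stands beside its count of calls at day 14.

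Among the genes of BMP and SMAD control 1 of 22 rose and 4 fell at day 14 (median -0.05). Bmp6 encodes a ligand that raises hepcidin. At day 1 it stood at 5.88 and 5.54 in males and at 5.56 and 5.29 in females. At day 7 it stood at 6.94 and 6.28 in males and at 6.31 and 5.96 in females. At day 14 it stood at 7.56 and 7.12 in males and at 7.04 and 6.56 in females. It was higher at each later day in all 4 preparations, days 14 and 1 did not overlap, and the rise in day 14 against day 1 was 1.51 ± 0.19 on the log2 scale (adjusted p = 0.00177). In day 7 against day 1 it was 0.81 ± 0.19 which did not pass (adjusted p = 0.0521), while it passed when the preparation was a block (0.0053).

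The 4 genes that fell past the test are known BMP targets. Id3, a relative of Id1 that also restrains transcription factors, fell by 1.55 ± 0.18 at day 14 (adjusted p = 0.00123) and by 1.39 ± 0.18 at day 7 (adjusted p = 0.00646). Id1 fell by 0.98 ± 0.15 at day 14 (adjusted p = 0.00382) and by 1.38 ± 0.15 at day 7 (adjusted p = 0.0031). Smad6, an inhibitor of BMP signalling that BMP induces, fell by 0.81 ± 0.19 (adjusted p = 0.0249) and Id2 by 0.60 ± 0.09 (adjusted p = 0.00416) at day 14. Smad6 lay under 4.79 on 3 arrays, among them male 1 and 2 at day 14 (4.23 and 4.26), so the size of its fall is uncertain. The BMP targets Atoh8 (-0.47 ± 0.23, adjusted p = 0.231) and Smad7 (-0.16 ± 0.20, adjusted p = 0.671, under 4.79 on 11 of 12 arrays) did not pass. Smad6, Id2, Atoh8 and Smad7 were named after their values were seen. The hepatocyte genes of this pathway Hjv, the BMP coreceptor hemojuvelin (0.31 ± 0.12, adjusted p = 0.113), Hfe, which shares in iron sensing (0.03 ± 0.10, adjusted p = 0.864), and Tmprss6, a protease that restrains hepcidin (0.09 ± 0.08, adjusted p = 0.532), did not pass and were likewise named after their values were seen.

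Bmp6 and the Id genes are also expressed in endothelial and other cells that are not hepatocytes. Of 7 endothelial markers 4 were lower at day 14 and 0 higher (median -1.33), beside 14.4% of all genes called. The lower markers included Cdh5 (-2.40 ± 0.31), Eng (-1.86 ± 0.32) and Lyve1 (-1.84 ± 0.42), and 4 of the 7 had a day 14 mean under 4.79. The part of these cells in the values of Bmp6 and its targets was not tested. Without any 1 preparation Bmp6 and Id3 still passed at day 14. Id1 had an adjusted p of 0.0525 without female 1, Smad6 0.115 without female 1 and 0.206 without female 2, and Id2 0.0795 without male 1 and 0.083 without male 2. At day 7 the adjusted p of Id1 was 0.0669 without male 1 and 0.055 without female 1, and that of Id3 0.0724 without male 1, 0.0768 without female 1 and 0.061 without female 2.

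Among 15 other genes of uptake and transport, 3 rose and 2 fell at day 14 (median 0.02). Slc22a17, a receptor for the siderophore carrier lipocalin 2, rose by 0.87 ± 0.10 (adjusted p = 0.00138) and passed with any 1 preparation left out. Steap4, a membrane iron and copper reductase, rose by 0.46 ± 0.09 (adjusted p = 0.0137), and Slc11a2, the divalent metal transporter, by 0.43 ± 0.09 (adjusted p = 0.0163). Steap3, the reductase that frees transferrin iron in endosomes, fell by 0.64 ± 0.13 (adjusted p = 0.0121), and Slc25a37, which carries iron into mitochondria, by 0.46 ± 0.08 (adjusted p = 0.00812). Slc11a2 and Slc25a37 were named after their values were seen.

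These calls in part rest on single preparations. The adjusted p reached 0.126 without male 1 and 0.162 without male 2 for Steap4, and 0.0795, 0.0734 and 0.093 without male 1, male 2 and female 2 for Steap3. It reached 0.0978, 0.172 and 0.105 without male 1, male 2 and female 2 for Slc11a2, and 0.0925, 0.0975 and 0.0757 without male 1, female 1 and female 2 for Slc25a37. In day 7 against day 1, Slc22a17 rose by 0.61 ± 0.10 (adjusted p = 0.0171) and Slc25a37 fell by 0.42 ± 0.08 (adjusted p = 0.028). Both lost these day 7 calls when any 1 preparation was left out, with adjusted p of at most 0.164 for Slc22a17 and 0.197 for Slc25a37.

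Of 9 genes of iron export and heme transport 2 rose at day 14, Slc46a1, a folate transporter that was also described as a heme carrier (0.40 ± 0.09, adjusted p = 0.0227), and Slc48a1, which moves heme out of lysosomes (0.21 ± 0.05, adjusted p = 0.0355). Both lost the call without any 1 preparation (adjusted p up to 0.183 and 0.263), and Slc48a1 also with the preparation as a block (0.06). Of 7 genes of storage and iron regulatory protein control 0 passed, with 2 at an unadjusted p under 0.05, beside 3398 of all 11861 genes. The largest value was that of Fbxl5, the iron sensor that marks an iron regulatory protein for degradation (0.19 ± 0.07, adjusted p = 0.11). Of 9 genes of interleukin 6 and STAT3 control Creb3l3 alone passed, a membrane-bound transcription factor of hepatocytes. It rose by 0.56 ± 0.09 at day 14 (adjusted p = 0.00449, and 0.0611 and 0.0554 without female 1 and female 2) and by 0.38 ± 0.08 at day 7 (adjusted p = 0.0486, or 0.0608 when the preparation was a block).

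In heme synthesis and breakdown 1 of 11 genes rose, Alad, which makes porphobilinogen, by 0.28 ± 0.07 at day 14 (adjusted p = 0.034) and 0.36 ± 0.07 at day 7 (adjusted p = 0.0324). A block for the preparation gave an adjusted p of 0.0541 at day 14 and 0.0531 at day 7, and with any 1 preparation left out it was up to 0.262 at day 14 and 0.248 at day 7. Of 14 genes of iron-sulfur cluster assembly, Fdx1, a ferredoxin that passes electrons, fell by 0.67 ± 0.07 at day 14 (adjusted p = 0.000768, passing with any 1 preparation left out) and by 0.39 ± 0.07 at day 7 (adjusted p = 0.02, up to 0.212 with 1 left out). Nfu1, which delivers the clusters in mitochondria, rose by 0.31 ± 0.08 at day 14 (adjusted p = 0.037, 0.0639 with the preparation as a block, up to 0.241 with 1 left out).

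**Figure D4:**
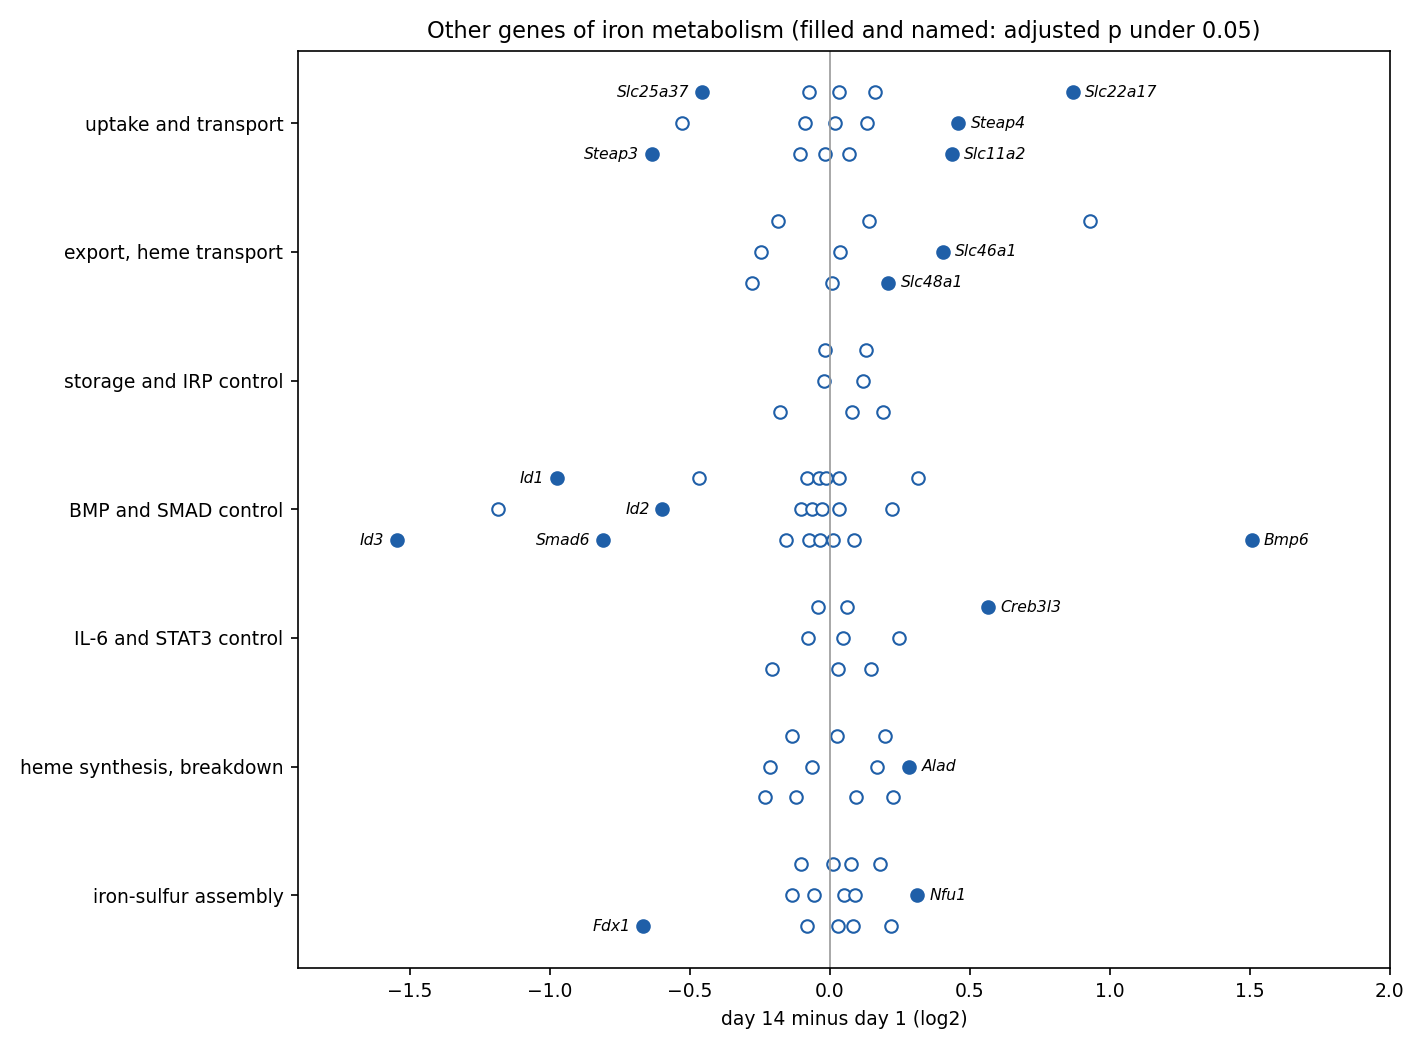
Difference of day 14 minus day 1 on the log2 scale (horizontal axis) for 87 other genes of iron metabolism in 7 lists (rows, spread vertically for legibility), filled and named where the adjusted p is under 0.05. Bmp6 lies farthest to the right, at 1.51, and the BMP targets Id3 and Id1 farthest to the left among the filled points, at -1.55 and -0.98.

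Inflammation and low oxygen are both known to act on hepcidin. Beside 14.4% of all genes called in day 14 against day 1, of 14 acute phase genes 7 were higher at day 14 than at day 1 and 0 lower (median 0.31), among them Saa2 (2.47) and Saa1 (1.93). Of 10 hypoxia targets 6 were lower and 0 higher (median -0.38), among them Ankrd37 (-1.52) and Adm (-1.51). Over the same days Hamp differed by -0.25 ± 0.44, as given above.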

How the data were processed

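Total RNA of 12 spheroid samples was labelled with biotin and hybridised to expression arrays, 1 array per sample. The log2 values were used as deposited by the authors, with 1 value per probe set. Per the submitters' processing notes, RMA, Transcriptome Analysis Console 4.0 and Partek 7.0 were used, with no role or order given. The array build is not given in the sources used here. Background correction and normalization are those of the deposit, since scanner files were not used. Every per-sample column was used (0 left out). Of 13081 probe sets 11889 had 1 gene symbol in the platform annotation, 1192 had none and 0 had several. All 11889 were matched by gene number to mouse genes of GRCm38.p6 and 0 symbols were updated. Several probe sets carried 19 of the symbols, and the one with the highest mean was kept, which left 11861 genes.

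The software was limma 3.58.1 in R 4.3.3. The model held 6 means, 1 per combination of sex and day, over all 12 arrays (eBayes without trend, not robust), and a day comparison averages the sexes. Sex over all days used the mean of each preparation, 2 against 2. Tests were two-sided, with Benjamini-Hochberg adjustment over 11861 genes. The number of arrays limits the precision, with a median standard error of 0.0946 for a day comparison, 0.076 for sex and 0.189 for a sex difference in a change. The mean estimate of a day 14 against day 1 difference was tested on simulated data with independent arrays. The simulation did not test the other comparisons or the pairing of arrays by preparation.

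The same pools were sampled on each day, so the preparation pairs the arrays, and it was tried as a block. Deviations from the group means correlated between days at 0.104, 0.0359 and 0.224 in the male pairs and at 0.0777, 0.0657 and 0.324 in the female pairs. Other alternatives were leaving out each preparation, centring arrays on their medians, a second quantile normalization, a trended and robust spread, the lowest-mean probe set, and only genes with a mean of at least 6.

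The members and the lists were chosen with earlier results of these data known. All members were named. From each list up to 3 genes with the largest day 14 difference were named among those past the test in any day comparison, or the 1 largest where none passed, and the text uses some of them. For Scara5, the member with the largest day 14 difference, the 5 genes with the highest correlation were named. Promoter windows came from RefSeq, of which the 250 bases before the start were searched. No window was used for Scara5, Trf and Slc40a1. Sequences were aligned with Biopython 1.88.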

Additional observations from a re-analysis of the deposited data

Results flagged for a closer look

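In 3 of the 30 sets of 4 levels (10 genes on 3 days), 1 array stood apart from the other 3, by a gap larger, as a share of the whole range, than Dixon's 95% critical value for 4 samples. Chance flags about 1 in 20 such sets. Hamp in male 2 at day 7 stood at 7.61, above the others, with a gap of 0.844 of the range. Trf in male 1 at day 1 stood at 12.81, below the others (0.9 of the range), and Fth1 in female 2 at day 14 at 12.56, above the others (0.857 of the range), both within a narrow span of levels.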

How the results depend on the processing

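With the preparation as a replicate block, which pairs the arrays of a pool, 2 of the 10 genes passed in day 14 against day 1 (Scara5 and Slc40a1), against 3 without it. Of 74 values compared 67 kept their side of the threshold, and the calls it changed stand beside their genes. With 1 preparation left out, that count of members ran from 0 to 2, being 0 without male 1 and without male 2 and 2 (Scara5 and Slc40a1) without either female preparation. Of all genes, fewer passed without any 1 preparation than with all arrays, where 1706 did, and each of these fits held fewer arrays. Fewer genes also passed in day 7 against day 1 (560 with all arrays) and in day 14 against day 7 (58 with all arrays). For sex the count of members ran from 0 to 1 and that of all genes from 3 to 26, against 21, and the lone preparation of a sex was assumed to vary like the others. A second quantile normalization gave 0 members for sex. The trended and robust spread gave 1 member in day 14 against day 7 (309 of all genes), and 3 for sex (Scara5, Hamp and Slc40a1, and 974 of all genes). It called 956 genes in day 7 against day 1. A mean of at least 6 gave 103 genes of 8910 in day 14 against day 7 and 282 for sex, and the block 101 in day 14 against day 7. The cause of these shifts was not tested.

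None of the log2 differences that changed sign had passed the test. A second quantile normalization gave 0.0214 for Ftl1 and -0.0047 for Cp in day 7 against day 1 and 0.0068 for Fth1 in day 14 against day 1. Centred arrays gave -0.0069 for Ftl1 in day 14 against day 1 and -0.0054 in day 14 against day 7. With 1 preparation left out, day 7 against day 1 ran from -0.00075 to 0.00445 for Trf, -0.0281 to 0.0277 for Ftl1 and -0.0238 to 0.0331 for Cp. Day 14 against day 1 ran from -0.84 to 0.34 for Hamp, -0.91 to 0.29 for Hamp2, -0.0101 to 0.0078 for Trf, -0.0328 to 0.0080 for Fth1, -0.0091 to 0.0092 for Ftl1 and -0.0147 to 0.0939 for Cp. Day 14 against day 7 ran from -0.0633 to 0.84 for Hamp2, -0.0300 to 0.10 for Tfr2, -0.0145 to 0.0086 for Trf and -0.0185 to 0.0190 for Ftl1. Male minus female in the day 7 change ran from -0.40 to 1.24 for Hamp, -0.40 to 1.47 for Hamp2, -0.0637 to 0.37 for Tfrc and -0.34 to 0.0133 for Slc40a1. In the day 14 change it ran from -0.80 to 1.56 for Hamp, -0.41 to 2.00 for Hamp2 and -0.25 to 0.33 for Slc40a1. No other difference in this check changed sign, and the lowest-mean probe set changed none of 84 values. The differences of Bmp2, Hjv, Hfe, Tmprss6, Atoh8 and Smad7 and of the cell marker, acute phase and hypoxia genes were not part of it.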
